A study of Drosophila melanogaster with 12 samples.

Results

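The comparison set 18 °C against 25 °C at the same hour of the day in heads of y w flies. It used 6 of the 12 arrays of the series, chosen by their labels: CA2, CA6 and CA10, taken at 18 °C, against AA2, AA6 and AA10, taken at 25 °C at the matched hours of the following day. All flies carried the y w markers, mutations of a body colour and an eye colour gene, on a wild-type clock. They were kept in constant darkness, first at 25 °C and then for more than 4 days in a thermocycle of 12 h at 18 °C and 12 h at 25 °C. The CA (cold/ambient) flies were collected during 1 more such cycle, with hour 0 at the start of the cold phase, and the AA (ambient/ambient) flies during a day at constant 25 °C after it. At AA2, AA6 and AA10 the flies had been at 25 °C for 14, 18 and 22 h, so that temperature and day could not be told apart within a pair. The remaining 6 arrays (CA14, CA18 and CA22 against AA14, AA18 and AA22) had both days at 25 °C and served as the comparison. Each array held RNA of about 100 to 200 heads, with 1 array per time point and the sex of the flies not given in the sources used here.

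Flies do not hold a body temperature of their own, and a drop to 18 °C slows their movement, feeding and metabolism. Cold is known to alter membrane lipids, stored sugars and fat, and the demand for chaperones, the proteins that keep others folded and that heat induces through the factor Hsf. A daily swing between these temperatures also sets the circadian clock, the loop in which Clk and cyc switch on per and tim, whose proteins then repress their own genes. Since clock output depends on the hour, pairing by hour keeps the time of day out of the difference.

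Values are RMA expression levels in log2 units, where the base was inferred from how far the values reach, so that 1 unit is a doubling. A paired difference is CA minus AA at 1 hour, and its mean over the 3 hours was tested with limma in a fit of all 12 arrays with the hour as a block (4 residual degrees of freedom). Adjusted p is by the Benjamini-Hochberg method over 11145 probe sets, the array's units of measurement, and p measures only the spread between single arrays. With 3 pairs an exact test of 1 value cannot give a two-sided p under 0.25, so none was made.

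Levels of transcripts typical of body tissue differed among the arrays. An index of 90 gut, male gland and testis, and muscle genes (mean log2 deviation from the 12-array mean) was 0.04, -0.10 and -1.19 on CA2, CA6 and CA10, against -0.12, -0.20 and -0.31 on AA2, AA6 and AA10. Of these 6 arrays CA10 alone stood apart. The hour-10 pair had an SD of paired differences over probe sets of 0.27, against 0.14 at hour 2 and 0.15 at hour 6. In the hour-10 pair 64 probe sets were over 0.5 higher at 18 °C and 298 over 0.5 lower. Among the later arrays, which also enter the fit, the index was 0.66 on CA14 and 0.98 on CA18. The hour-18 pair had an SD of 0.25, with 466 probe sets over 0.5 higher in CA and 92 over 0.5 lower. Head markers were present, among them the eye arrestins Arr1 and Arr2, both above 99% of probe sets, and the glial factor repo, while the neuronal marker elav lay low, above 18.0% of them. In heads, fewer cells of a type and less RNA per cell cannot be told apart. What part these transcripts have in any result below was not tested, and values with the index as a covariate or without hour 10 stand beside the results that it touches.

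**Figure D1:**
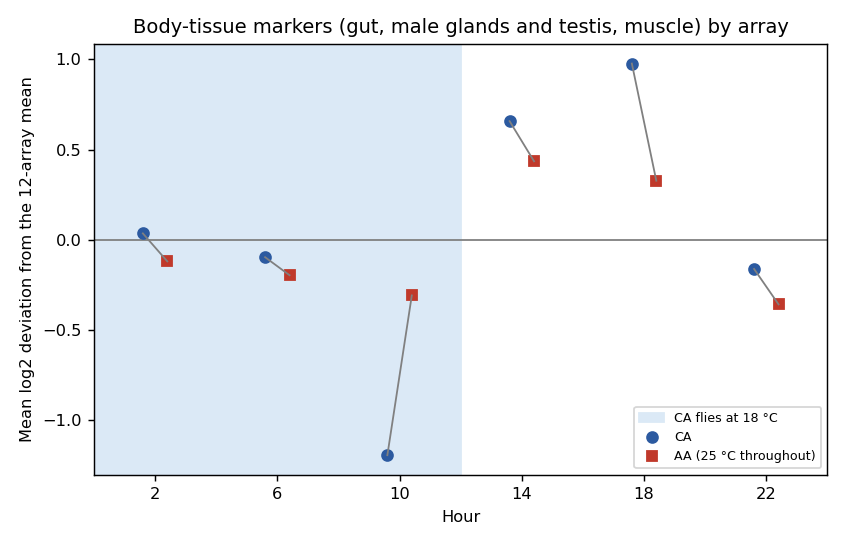
Mean log2 deviation of 90 body-tissue markers (y axis) on each array by hour (x axis), with CA arrays as circles left of AA arrays as squares and a line joining each pair. CA10, at -1.19, lies below all other arrays, and at hours 2 and 6 the pairs differ by 0.15 and 0.10.

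The test across all genes left 1 gene, fit, with lower values at 18 °C than at the matched hours of the next day. It was the only one of 11145 probe sets with an adjusted p under 0.05 (0.00897%), and 0 were higher at that threshold, while 980 had an unadjusted p under 0.05 (541 higher and 439 lower at 18 °C). At an adjusted p under 0.2, 17 probe sets were higher (0.153%) and 9 lower (0.0808%), and 8 of these 26 have no single gene name. Without the hour block 0 probe sets had an adjusted p under 0.2 in limma, and 670 an unadjusted p under 0.05. Consistency of sign was common by comparison: 1899 probe sets were higher at 18 °C in all 3 pairs (17.0%) and 1595 lower (14.3%). Differences of at least 0.2 in every pair were found upward in 65 (0.583%) and downward in 33 (0.296%). Without regard to pairing, the 3 values at 18 °C lay above all 3 at 25 °C in 791 (7.1%) and below them in 705 (6.33%). They lay above all 9 arrays taken at 25 °C in 181 (1.62%) and below all 9 in 45 (0.404%). These shares are the background against which the members of each gene list are counted below. The lists were chosen with earlier results of these data known, so a list share above this background is a description and no test.

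fit is made in the fat body of the head, chiefly in females, and its secreted product is known to curb the appetite for protein after a protein meal. It measured 8.59, 8.43 and 8.00 on CA2, CA6 and CA10, against 9.56, 9.38 and 9.30 on AA2, AA6 and AA10. Every 18 °C value lay below every matched 25 °C value. The mean was 8.34 ± 0.30 at 18 °C and 9.42 ± 0.13 at 25 °C (SD, n = 3 each), a difference of -1.08 (SE 0.08), or 0.474 times the 25 °C level, with a limma adjusted p of 0.00453. With the index as a covariate the difference was -1.03 (adjusted p 0.000642), and without hour 6 it was -1.14 (adjusted p 0.0512). With only the 6 arrays of the comparison the difference of fit was the same and its adjusted p 0.122, and without the hour block its adjusted p was 0.565, so the call rests on the blocked fit of all 12 arrays.

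fit also had lower values in CA after the cold. At CA14, CA18 and CA22, back at 25 °C, fit measured 8.33, 8.64 and 9.22, against 8.81, 9.24 and 9.57 at AA14, AA18 and AA22. It was lower in all 6 pairs, the gap at hours 14 to 22 was -0.48 (adjusted p 0.146), and the difference between both gaps was -0.60 (adjusted p 0.39). Other genes of the head fat body gave smaller differences. The yolk proteins Yp1, Yp2 and Yp3, made in females, differed between 18 and 25 °C by 0.04, -0.06 and 0.00 on average. Their median levels over the series were 14.3, 13.99 and 14.42, each above 100.0% of probe sets after rounding. Whether probe sets at such high levels can show a change was not tested, so no conclusion is drawn from these small differences. The storage protein Lsp2 differed by -0.40, 0.04 and 0.24 at hours 2, 6 and 10. Of 13 ovary and egg-shell genes, 4 were lower in all 3 pairs (30.8%, background 14.3%) and 0 higher (median -0.09). All 13 had a lower mean in CA at hours 14 to 22, where 60.2% of all probe sets did. The part of female tissue in the difference of fit was not tested.

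**Figure D2:**
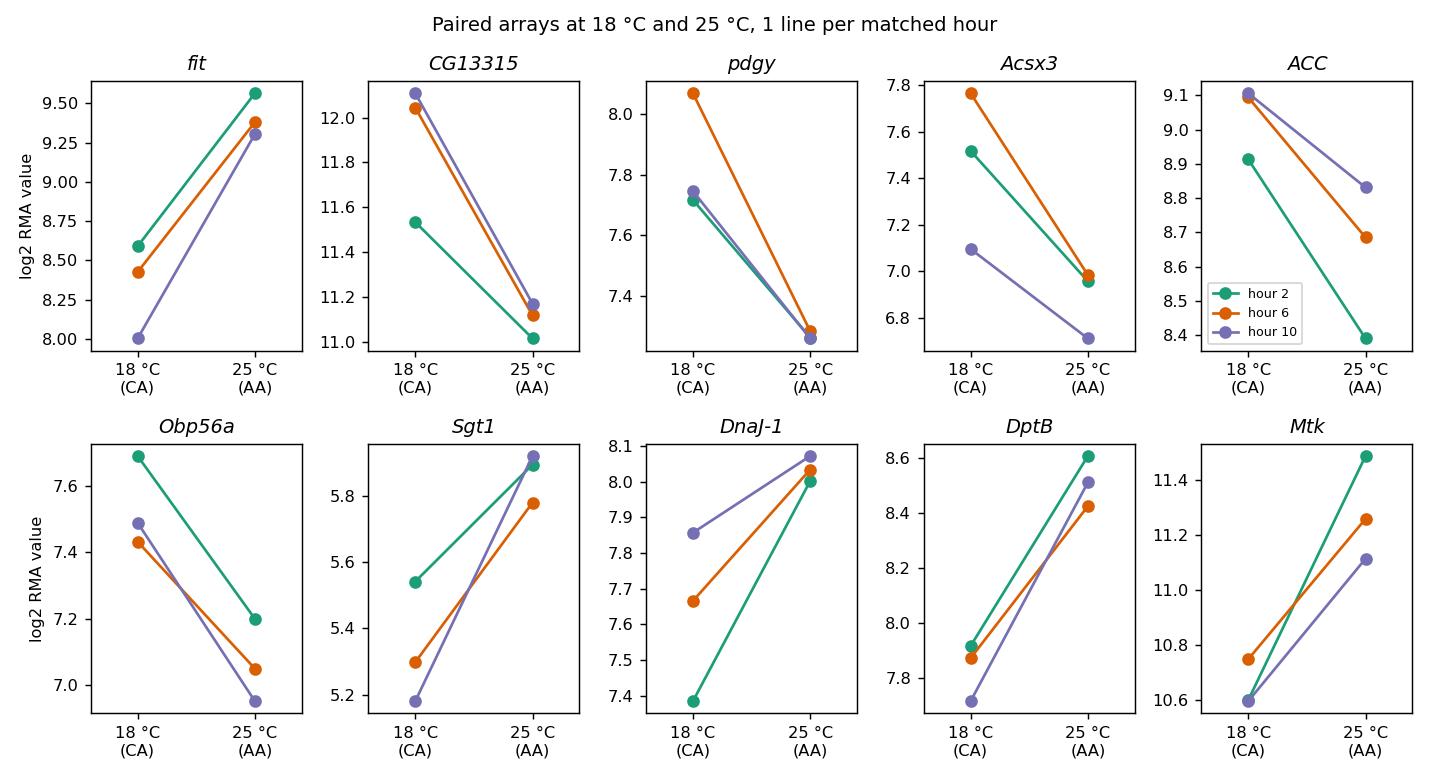
log2 RMA values (y axes, each panel with its own range) of 10 genes at 18 °C (CA, left) and 25 °C (AA, right), with 1 line per matched hour. Every line of fit, Sgt1, DnaJ-1, DptB and Mtk is lower at the 18 °C end, and every line of the other 5 genes is higher there.

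Genes that handle fatty acids were among the highest at 18 °C. pdgy (pudgy), a synthetase that joins fatty acids to coenzyme A, measured 7.72, 8.07 and 7.75 at 18 °C, against 7.26, 7.29 and 7.26 at 25 °C. Its 25 °C values lay within 0.03 of each other and all 3 cold values above every one of the 9 arrays at 25 °C (0.57, SE 0.08, adjusted p 0.0981). Acsx3, a synthetase of the same family, measured 7.52, 7.76 and 7.09 at 18 °C, against 6.96, 6.98 and 6.71 at 25 °C (0.58, SE 0.09, adjusted p 0.106), again above all 9 arrays at 25 °C. ACC, the acetyl-CoA carboxylase that makes the first building block of new fatty acids, measured 8.91, 9.09 and 9.11 at 18 °C, against 8.39, 8.69 and 8.83 at 25 °C (0.40, SE 0.07, adjusted p 0.142). The gap of ACC was 0.52, 0.41 and 0.28 at hours 2, 6 and 10. A second probe set of ACC gave 0.07, 0.20 and 0.07. None of these 3 genes passed 0.05 as tested, and each did with the index as a covariate (adjusted p 0.0392 for all 3).

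For enzymes that build stored fat the gap to 25 °C was wider at hour 10 than at hour 2, whereas that of ACC was narrower, while CA values of all 3 genes were higher at hour 10 than at hour 2. mdy, a diacylglycerol acyltransferase that makes the last step to triglyceride, measured 7.05, 7.76 and 7.88 at 18 °C, against 6.84, 7.21 and 7.17 at 25 °C (0.49, SE 0.10, adjusted p 0.248). Its gap was 0.20, 0.56 and 0.72 at hours 2, 6 and 10, and 0.14, 0.18 and 0.39 on a second probe set. That of mino, the acyltransferase of the first step, was 0.19, 0.32 and 0.75 (adjusted p 0.361). The gap of both genes was thus widest in the pair with CA10, and it became 0.42 for mdy and 0.34 for mino with the index as a covariate. Lsd-1, a perilipin on lipid droplets, measured 8.53, 7.94 and 8.03 at 18 °C, against 8.40, 8.39 and 8.59 at 25 °C, higher at hour 2 and lower at both later hours (-0.29, adjusted p 0.554).

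As a list, 8 of 24 genes of fat storage and lipid droplets were higher at 18 °C in all 3 pairs (33.3%, background 17.0%) and 0 lower. Their median difference was 0.07 against 0.00 over all probe sets. At hours 14 to 22, with both days at 25 °C, 7 of the 24 were higher in CA in all 3 pairs and 3 lower. Over all probe sets 15.1% and 23.8% were, and the list median at those hours was 0.03. With the pairs at hours 2 and 6 alone, 12 were higher in both and 0 lower, where 28.8% of all probe sets were higher in both and 31.2% lower. Of 10 acyl-CoA synthetases 5 were higher in all 3 pairs and 0 lower (median 0.04), and those outside pdgy and Acsx3 had means between -0.05 and 0.12. Among 18 desaturases and elongases, which set the fluidity and length of membrane and cuticle lipids, 5 were higher and 5 lower (27.8% each, background 17.0% and 14.3%). Desat1, the main delta-9 desaturase, was higher by 0.16, 0.23 and 0.20 (adjusted p 0.522, and 0.21 on average at hours 14 to 22). The elongase bond was higher by 0.35, 0.17 and 0.05. In contrast eloF, an elongase of the female cuticle hydrocarbons, was lower by 0.12, 0.13 and 0.41 at hours 2, 6 and 10 (mean -0.22). Its mean gap was -0.42 at hours 14 to 22, when both days were at 25 °C. Insulin and nutrient sensing gave 3 of 18 higher and 2 lower, near the background, with the insulin receptor InR at 4.78, 4.79 and 4.75 at 18 °C, against 4.39, 4.53 and 4.57 at 25 °C (0.27, adjusted p 0.297).

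Sugar storage had the highest share of consistent members of any list with more than 3 members. Of 12 genes of glycogen and trehalose metabolism, 9 were higher at 18 °C in all 3 pairs (75.0%, background 17.0%) and 1 lower, the glycogen primer Gyg. The list had a median of 0.16, at 0.14, 0.17 and 0.21 in hours 2, 6 and 10, and 0.16 without hour 10. At hours 14 to 22, with both days at 25 °C, its median was 0.08. In those hours 5 of the 12 were higher in CA in all 3 pairs and 3 lower, where 15.1% and 23.8% of all probe sets were. In the test at hours 2 to 10 no member passed an adjusted p of 0.2. An unadjusted limma p under 0.05 was found for 8 of the 12, and for 980 of all 11145 probe sets. Tps1, which makes trehalose, the blood sugar of insects, measured 11.04, 11.10 and 11.04 at 18 °C, against 10.70, 10.89 and 10.74 at 25 °C (0.28, SE 0.06, adjusted p 0.233). Its cold values lay above all 9 arrays at 25 °C, and at hours 14 to 22 it differed between CA and AA by -0.02. AGBE, the glycogen branching enzyme, measured 7.82, 8.06 and 8.37 at 18 °C, against 7.54, 7.61 and 7.76 at 25 °C (0.45, SE 0.11, adjusted p 0.297, and 0.21 at hours 14 to 22). Tret1-1, a trehalose transporter, was higher by 0.22, 0.67 and 0.27 and Treh, which splits trehalose, by 0.08, 0.25 and 0.32. A second probe set of Tret1-1 gave a mean of 0.10. Enzymes of making and of breaking glycogen had the same sign, with Glys, the synthase, and Glyp, the phosphorylase, both 0.16 higher on average.

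Galk, Nagk and Gpdh1, enzymes of sugar metabolism outside that list, were chosen with their values in view, apart from Gpdh1, which is among the 12 highest. Galk, a galactokinase, measured 7.35, 7.58 and 7.66 at 18 °C, against 7.11, 7.18 and 7.18 at 25 °C (0.37, SE 0.06, adjusted p 0.149). Nagk, a kinase of N-acetylglucosamine, measured 9.15, 9.26 and 9.14 at 18 °C, against 8.84, 8.76 and 8.78 at 25 °C (0.39, adjusted p 0.149). Gpdh1, the glycerol-3-phosphate dehydrogenase that links sugar breakdown to glycerol and fat, was higher by at least 0.35 in each pair, and its adjusted p was 0.321. For all 3 genes the cold values lay above the 3 matched values, and for Nagk above all 9 arrays at 25 °C.

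Several chaperone genes had lower values at 18 °C, among them partners of Hsp90. Sgt1, a co-chaperone of Hsp90, measured 5.54, 5.30 and 5.18 at 18 °C, against 5.90, 5.78 and 5.92 at 25 °C (-0.53, SE 0.08, adjusted p 0.0981). DnaJ-1, the Hsp40 partner of Hsp70 and a textbook heat-shock gene, measured 7.38, 7.67 and 7.86 at 18 °C, against 8.00, 8.03 and 8.07 at 25 °C (-0.40, SE 0.08, adjusted p 0.248). Both lay below all 9 arrays at 25 °C, and with the index as a covariate their adjusted p was 0.0462 for Sgt1 and 0.0472 for DnaJ-1. They ran in opposite ways through the cold, DnaJ-1 lowest at hour 2 and Sgt1 at hour 10. Stip1, which hands clients over between Hsp70 and Hsp90, measured 6.66, 6.08 and 6.21 at 18 °C, against 6.78, 6.95 and 6.96 at 25 °C (-0.58, adjusted p 0.283). mora, the fly CHORD protein and a partner of Sgt1 and Hsp90, was 0.12 higher at hour 2 and 0.52 and 0.43 lower at hours 6 and 10. For Stip1 and mora the gap was wide at hours 6 and 10 and not at hour 2.

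Over the whole list of 19 Hsp70 and Hsp90 genes the lean to lower values rested on hour 10. Of them 5 were lower in all 3 pairs (26.3%, background 14.3%) and 2 higher, and the median of -0.08 became 0.01 without hour 10 and -0.02 with the index. The 3 small heat-shock proteins measured were lower in every pair, at -0.33 on average for Hsp26, -0.22 for Hsp27 and -0.18 for l(2)efl, with adjusted p between 0.485 and 0.56. Their median gap was -0.08, -0.14 and -0.44 at hours 2, 6 and 10. Hsf itself was higher by 0.11, 0.12 and 0.23. Of 8 subunits of the CCT chaperonin, which folds actin and tubulin, 1 was lower in all 3 pairs (12.5%, background 14.3%) and 0 higher. Of 11 chaperones of the endoplasmic reticulum 3 were higher (27.3%, background 17.0%) and 0 lower.

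DptB and Mtk, genes of antimicrobial peptides, were among the 12 genes with the most consistent lower values. Diptericin B, the product of DptB, acts against Gram-negative bacteria and is under the Imd pathway. DptB measured 7.92, 7.87 and 7.72 at 18 °C, against 8.61, 8.42 and 8.51 at 25 °C (-0.68, SE 0.14, adjusted p 0.248). Mtk, which encodes the antifungal peptide Metchnikowin, measured 10.60, 10.75 and 10.60 at 18 °C, against 11.49, 11.26 and 11.12 at 25 °C (-0.64, SE 0.15, adjusted p 0.283). The groups did not overlap in either gene, and both genes were then higher at CA22 than at AA22, DptB by 0.82 and Mtk by 0.77. Of the 8 peptides measured 3 were lower in all 3 pairs (37.5%, background 14.3%) and 0 higher. Drs, the main antifungal target of Toll, differed by 0.05, 0.38 and -0.13. More of the signalling genes above the peptides were higher than lower. Of 18 immune recognition and signalling genes 8 were higher at 18 °C in all 3 pairs (44.4%, background 17.0%) and 2 lower, with a median of 0.07. They include Rel, the NF-kappaB factor of the Imd pathway, at 6.99, 7.13 and 7.23 at 18 °C, against 6.67, 6.95 and 6.81 at 25 °C (0.31, adjusted p 0.297). They also include tub, an adaptor of the Toll receptor, higher by 0.22, 0.27 and 0.23 (adjusted p 0.29). Both lay above all 9 arrays at 25 °C.

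Most cytosolic ribosomal proteins had slightly lower values at 18 °C. Of 36 measured, 20 were lower at 18 °C in all 3 pairs (55.6%, background 14.3%) and 4 higher, with a median of -0.11, and -0.09 without hour 10. RpL32 measured 11.83, 11.85 and 11.77 at 18 °C, against 12.04, 12.08 and 12.05 at 25 °C (-0.24, SE 0.06, adjusted p 0.29). Its groups did not overlap although the gap is small, and the same holds for RpS30, at 11.82, 11.84 and 11.93 at 18 °C, against 12.01, 12.04 and 12.09 at 25 °C. The largest mean gap of the members lower in all 3 pairs was that of RpS29, at -0.30 (adjusted p 0.268). The same list was also lower in CA when both days were at 25 °C, with a median of -0.07 at hours 14 to 22. Of its 36 genes 18 were lower in all 3 of those pairs, where 23.8% of all probe sets were. Of 63 mitochondrial ribosomal proteins, 14 were lower in all 3 cold pairs (22.2%) and 7 higher (11.1%), with a median of -0.04. At hours 14 to 22 their median was -0.06, with 17 lower in all 3 pairs and 4 higher, where 23.8% and 15.1% of all probe sets were. Of 40 translation factors 5 were lower in all 3 cold pairs (12.5%) and 11 higher (27.5%), with a median of -0.01. The background in the cold pairs is 14.3% lower and 17.0% higher. Oxidative phosphorylation (68 genes, median -0.01, 14 higher and 12 lower) and the proteasome (36 genes, median -0.01, 2 higher and 5 lower) had medians close to that of all probe sets.

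Transcripts of the nervous system and the eye gave small shifts. Of 19 neuropeptides and peptide hormones 10 were higher at 18 °C in all 3 pairs (52.6%, background 17.0%) and 0 lower. The median was 0.06, at 0.03, 0.07 and 0.14 in hours 2, 6 and 10, and 0.04 with the index. The highest mean gap was 0.19, of Ms (myosuppressin), and the lowest adjusted p of the list was 0.56. Of 15 glial genes 7 were higher in all 3 pairs (46.7%, background 17.0%) and 0 lower. Their median of 0.05 was 0.02 with the index, 0.02 without hour 10 and 0.12 without hour 2. The glial genes higher in all 3 pairs include CG6126 (0.21, 0.31 and 0.40), Indy (0.05, 0.06 and 0.69) and repo (0.21, 0.28 and 0.21). Neuronal and synaptic genes, with 3 of 25 higher and 5 lower, showed no such lean. Of 19 phototransduction genes 8 were higher in all 3 pairs (42.1%, background 17.0%) and 1 lower. Their median was 0.06, and 0.01 with the index. Among them laza, a lipid phosphatase of the light response, was higher by 0.06, 0.30 and 0.48 (adjusted p 0.4). In amine and pigment metabolism speck, an N-acetyltransferase that inactivates dopamine, measured 7.10, 6.80 and 6.74 at 18 °C, against 7.35, 7.34 and 7.33 at 25 °C (-0.46, SE 0.08, adjusted p 0.149). It lay below all 9 arrays at 25 °C. Ddc, which makes dopamine, was higher by 0.12, 0.32 and 0.37 (adjusted p 0.4).

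**Figure D3:**
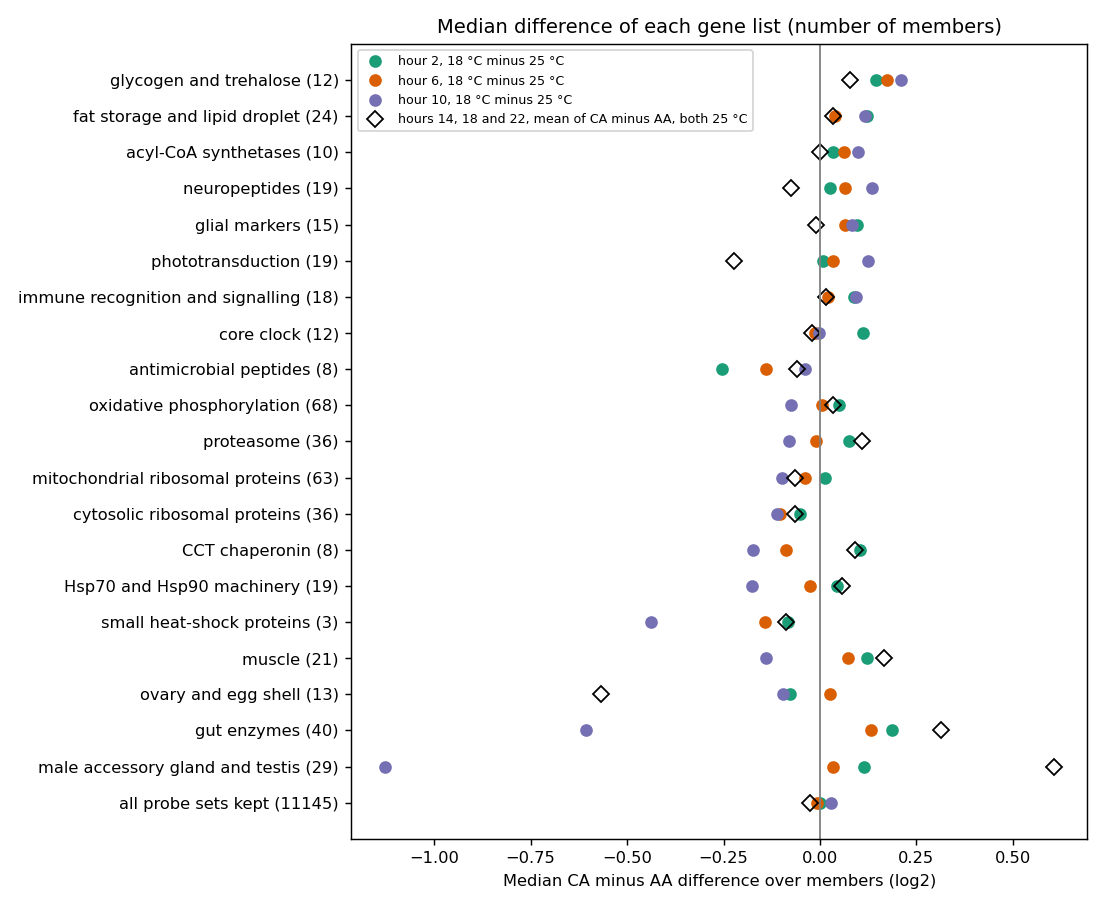
Median CA minus AA difference over the members of 20 gene lists and over all probe sets (x axis, log2; member number in brackets) at hours 2, 6 and 10 (filled circles) and for the mean of hours 14, 18 and 22 (open diamonds, both days at 25 °C). The glycogen and trehalose list is at 0.14, 0.17 and 0.21, and the gut and male lists reach -0.61 and -1.13 at hour 10 alone.

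The clock genes had no common direction at matched hours. Of 12 core clock genes and regulators measured, per, dco and slmb were higher at 18 °C in all 3 pairs (25.0%, background 17.0%). Only jet was lower in all 3 (8.33%, background 14.3%). The median was 0.01 and the lowest adjusted p 0.497. tim measured 8.27, 7.39 and 7.18 at CA2, CA6 and CA10, against 7.85, 7.72 and 7.81 at AA2, AA6 and AA10. It was thus higher in the cold by 0.41 at hour 2 and lower by 0.33 and 0.62 at hours 6 and 10, with a mean gap of -0.18 (SE 0.18, adjusted p 0.795). per, its partner, was higher by 0.02, 0.17 and 0.19 (adjusted p 0.617), and the gaps of per and tim differ in sign at hours 6 and 10. Pdp1 and cwo, both targets of Clk, were higher in the cold at hour 2 and lower at hour 10, as tim was, at 0.24, 0.08 and -0.27 for Pdp1 and 0.16, 0.06 and -0.29 for cwo. Clk was 0.10 higher at hour 2 and 0.21 and 0.18 lower at hours 6 and 10. vri, the repressor of Clk, was 0.22 higher, 0.04 lower and 0.25 higher, cry, the blue-light receptor, 0.03 higher, 0.18 lower and 0.21 higher, and cyc, whose level is flat over the day, 0.13 lower, 0.01 higher and 0.03 lower.

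Of the clock's regulators, slmb, the F-box protein that marks PER for breakdown, measured 4.57, 4.63 and 4.55 at 18 °C, against 4.24, 4.40 and 4.30 at 25 °C (0.27, SE 0.10, adjusted p 0.512). jet, the F-box protein that marks TIM, measured 5.49, 5.56 and 5.71 at 18 °C, against 5.82, 5.83 and 5.73 at 25 °C (-0.20, SE 0.07, adjusted p 0.497). Both had groups without overlap, in opposite directions. They were the only 2 of the 12 clock genes with such groups, 1 each way. Over all probe sets 7.1% had such groups upward and 6.33% downward, so 1 of 12 is near the background. dco, the kinase doubletime, was higher by 0.13, 0.23 and 0.02, and Pdf, the neuropeptide of the clock neurons, differed by -0.05, -0.06 and 0.11. A second probe set of tim gave gaps of 0.28, 0.23 and -0.03 and a second one of cwo -0.02, -0.26 and 0.33, so that probe sets of these genes disagree.

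**Figure D4:**
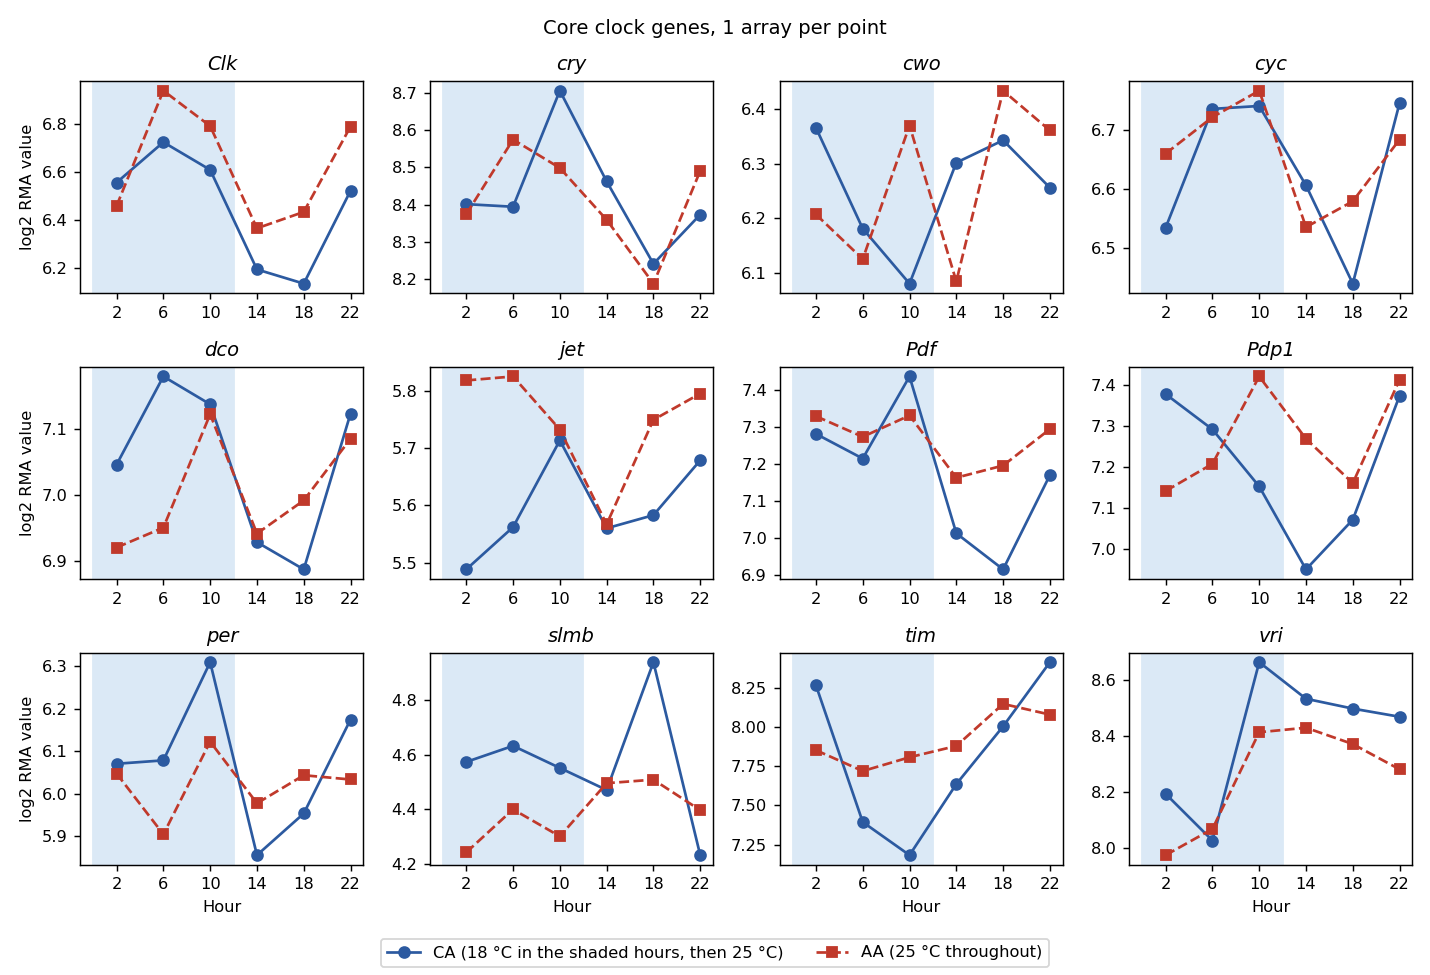
log2 RMA values (y axes, each panel with its own range) of the 12 clock genes by hour (x axes), CA as solid lines with 18 °C hours shaded and AA as dashed lines, with 1 array per point. tim is at 8.27 at CA2 and at 7.18 at CA10, while its AA values at hours 2 to 10 lie between 7.72 and 7.85.

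The most consistent differences included genes of little known function. CG13315 had the highest smallest gap of the 3 pairs and measured 11.53, 12.04 and 12.11 at 18 °C, against 11.01, 11.12 and 11.17 at 25 °C (0.80, SE 0.10, 1.74-fold, adjusted p 0.0981). Oatp74D, the importer of the steroid ecdysone, measured 6.88, 7.32 and 7.22 at 18 °C, against 6.48, 6.76 and 6.31 at 25 °C (0.62, SE 0.10, adjusted p 0.139). Both lay above all 9 arrays at 25 °C, as did CG7300 (0.45), CG10621 (0.60), CG10553 (0.57) and jbug, a filamin that binds actin (0.43), though 2 other probe sets of jbug gave means of -0.01 and 0.02. Obp56a, an odorant-binding protein, measured 7.69, 7.43 and 7.49 at 18 °C, against 7.20, 7.05 and 6.95 at 25 °C (0.47, SE 0.06, adjusted p 0.0981). The other 24 odorant-binding proteins had mean gaps between -0.21 and 0.17, below that of Obp56a. dom, a chromatin remodeller (0.44, and 0.14 on a second probe set), CG17544 (0.38), CG10175 (0.36) and CG9377, a serine protease homologue (0.58), complete the 12 highest.

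On the lower side, bip1, CG16779, Dlip2, CG14483 and CG17359 had mean gaps between -0.24 and -0.38, with adjusted p between 0.246 and 0.361. In each, the 3 cold values lay below the 3 matched ones. Sox15, an HMG-box transcription factor, was at -0.34, -0.28 and -0.33 on 1 probe set (adjusted p 0.149), and its 2 other probe sets gave means of 0.03 and 0.00. Of the 9 probe sets lower at an adjusted p under 0.2, 5 have no single gene name. Among 72 cytochromes P450 20 were higher in all 3 pairs (27.8%, background 17.0%) and 7 lower (9.72%, background 14.3%), with a median of 0.04. Cyp6a23 was higher by 0.22, 0.26 and 0.38 (adjusted p 0.283) and Cyp309a1 lower by 0.41, 0.20 and 0.31 in the same order (adjusted p 0.337).

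The remaining lists had medians between -0.05 and 0.13 apart from those of the body tissues. Higher and lower in all 3 pairs were 8 and 2 of 27 genes of tyrosine, dopamine and pteridine metabolism (median 0.04), 2 and 1 of 13 takeout genes (0.06), 4 and 1 of 14 genes known from cold acclimation (0.00), and 4 and 2 of 20 HMG-box and stress factors (0.06). The detoxifying families gave 5 and 2 of 17 UDP-glycosyltransferases (29.4% and 11.8%, median 0.05) and 4 and 5 of 32 glutathione S-transferases (12.5% and 15.6%, median -0.02). Splicing gave 3 and 2 of 14 SR proteins and kinases (21.4% and 14.3%, median 0.02) and 2 and 0 of 8 hnRNP proteins (25.0% and 0.0%, median -0.01). Of 72 cuticle proteins 8 were higher and 2 lower (11.1% and 2.78%, median 0.03), and of 25 odorant-binding proteins 7 and 3 (28.0% and 12.0%, median -0.02). Head fat body genes gave 1 and 2 of 8 (12.5% and 25.0%, median -0.05). Retinoid genes gave 2 and 0 of 5 (40.0% and 0.0%), with a median of 0.13, and 0.04 with the index and 0.07 without hour 10. The body-tissue lists were lowest at hour 10, where the median was -0.61 over 40 gut genes, -1.13 over 29 male gland and testis genes and -0.14 over 21 muscle genes. At hours 2 and 6 these 3 medians lay between 0.03 and 0.19.

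The arrays at hours 14, 18 and 22, with both sets of flies at 25 °C, give the gap without a temperature difference at collection. A gap present in both sets of hours cannot be told apart from a difference between the days. The body-tissue index was higher in CA at these hours by 0.22, 0.65 and 0.20, and its part was not tested. The arrays at these hours were not used to choose the probe sets with a difference of at least 0.2. Over all probe sets 15.1% were higher in CA in all 3 of those pairs and 23.8% lower. Of the 65 probe sets at least 0.2 higher at 18 °C in every pair, 13 were higher in all 3 later pairs and 10 lower, and their median gap was 0.35 at hours 2 to 10 and 0.02 at hours 14 to 22. Of the 33 at least 0.2 lower, 13 were lower in all 3 later pairs and 6 higher, and their median gap was -0.32 at hours 2 to 10 and -0.07 at hours 14 to 22. Dlip2 and CG14483 had similar gaps in both sets of hours, at -0.36 and -0.29 at hours 2 to 10 and -0.32 and -0.25 at hours 14 to 22. RpS29 had a wider gap at the later hours, at -0.52. Galk and ACC were also higher in CA in all 3 later pairs, at 0.23 and 0.18 on average. pdgy, Nagk, Tps1, tub and bip1 had later gaps between -0.02 and 0.04.

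Whether the gap itself differed between the 2 sets of hours was tested in the same fit. No probe set passed an adjusted p of 0.05 in limma, 1162 had an unadjusted p under 0.05, and at an adjusted p under 0.2 there were 2 higher (0.0179%) and 4 lower (0.0359%). The 2 higher were Obp56a and Acsx3, and the 4 lower have no single gene name. Acsx3 measured 5.82, 5.71 and 6.62 at CA14, CA18 and CA22, against 6.26, 6.18 and 6.78 at AA14, AA18 and AA22. It was thus higher than AA in the cold and lower than AA after it, with a difference between both gaps of 0.94 (SE 0.12, adjusted p 0.133). Obp56a measured 6.95, 7.20 and 7.45 at CA14, CA18 and CA22, against 7.21, 7.41 and 7.54 at AA14, AA18 and AA22, and its gaps differed by 0.66 (SE 0.09, adjusted p 0.133). Next in rank on the higher side were CG13315 (0.89, adjusted p 0.222), rost (0.62, adjusted p 0.231) and CG10621 (0.73, adjusted p 0.311). On the lower side the named genes were CG44433 (-0.67, adjusted p 0.333), CG15177 (-0.62, adjusted p 0.38), and fit, CG10859 and CG33189 (all adjusted p 0.39). In CG44433, CG10859 and CG33189 the gap in the cold was within 0.10 of zero and CA values were higher at hours 14 to 22, when the body-tissue index was higher in CA by 0.22, 0.65 and 0.20, whose part was not tested. With the index as a covariate 1 probe set passed an adjusted p of 0.05 in this test.

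**Figure D5:**
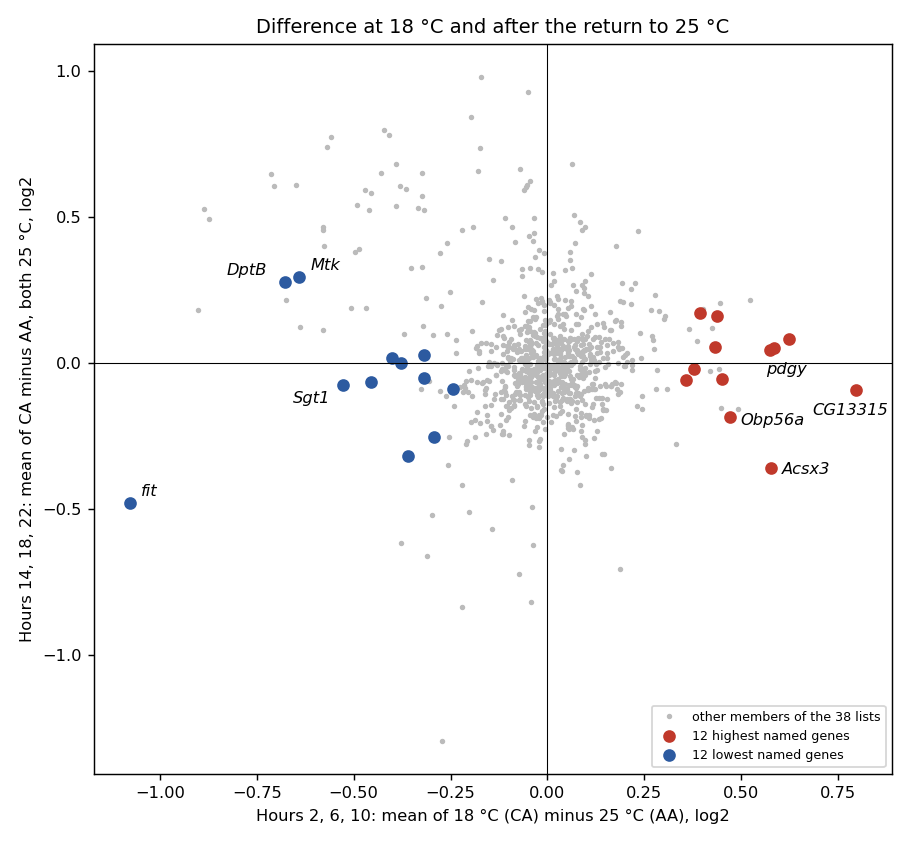
Mean CA minus AA difference at hours 2, 6 and 10, with CA at 18 °C (x axis, log2), against that at hours 14, 18 and 22, with both days at 25 °C (y axis, log2), for the members of the 38 lists (grey) and the 12 highest and 12 lowest named genes. fit is at -1.08 and -0.48, and Acsx3, at 0.58 and -0.36, lies on opposite sides of zero.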

How the data were processed

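Heads of y w flies were measured on 12 Affymetrix Drosophila Genome arrays, of which 6 make the comparison. The deposited log2 values were prepared by the authors with RMA, whose version is not given in the sources used here. RMA adjusts background, brings arrays to 1 distribution and summarises each probe set, so a shift of all genes would not show. Array medians lay between 5.56 and 5.60. Precision is limited by the small number of arrays.

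Of 14010 probe sets, 44 are controls. Among the others 12442 have 1 gene name in the platform annotation, 327 several and 1197 none, and names were updated through the gene identifiers of a RefSeq table (Release 6). Kept were 11145 probe sets with most of 12 values above the 20th percentile of their array. In lists the probe set with the highest mean stood for a gene, and 8907 genes had one.

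limma 3.58.1 in R 4.3.3 fitted all 12 arrays with the hour as a block. Figures used matplotlib 3.10.9 under Python 3.11.15. The named genes were the 12 highest and 12 lowest by the smallest of the 3 paired differences among probe sets with 1 gene name, 5 and 5 by the p of the difference between sets of hours, up to 4 per list by smallest paired difference, and all clock genes. Any other gene in the text was picked with its values in view. Alternatives were other filters, priors, array sets, floors and covariates, leaving out each hour, and, added after seeing the data, list counts at hours 2 and 6 alone. The members and the 38 lists were chosen with earlier results of these data known. The fit was tested on simulated data.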

Additional observations from a re-analysis of the deposited data

Results flagged for a closer look

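Acsx3 and Obp56a changed sign between the cold hours and the warm hours, which made them stand out. The difference between the CA minus AA gaps was 0.94 for Acsx3 (0.58 at hours 2 to 10 and -0.36 at hours 14 to 22) and 0.66 for Obp56a (0.47 at hours 2 to 10 and -0.19 at hours 14 to 22). In both, all 3 pairs were above zero in the cold and all 3 below it afterwards, and the test of the difference in limma gave an adjusted p of 0.133 for each, which does not pass 0.05. Opposite signs in all 6 pairs were found in 483 of 11145 probe sets (4.33%) and in 23 of the 165 named genes (13.9%), most of which were chosen for agreement within the cold hours.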

How the results depend on the processing

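The count of 1 probe set between 18 °C and 25 °C depended on how the spread was estimated. It was 0 with only the 6 arrays at hours 2, 6 and 10 and 0 with no block, that is, without the pairing by hour, 21 (14 higher, 7 lower) with a trended robust prior, 15 (9 higher, 6 lower) with the body-tissue index as a covariate, 26 at a threshold of 0.2, and 0 to 4 when the 2 arrays of 1 hour were left out (0 without hour 6, 4 without hour 2). For the difference between sets of hours, the count of 0 became 5 with the trended robust prior, 1 with the index and 6 at a threshold of 0.2, and it was 0 or 1 with 1 hour left out (1 without hour 10). The 98 probe sets with all 3 paired differences past 0.2 became 558 at a floor of 0.1, 24 at a floor of 0.3 and 64 among means of at least 6, and 193 to 481 with 1 hour left out, by construction since only 2 pairs then had to pass. The glycogen and trehalose median of 0.16 was 0.14 to 0.20 with 1 hour left out (0.20 without hour 6). Over the 38 list medians, 252 values under an alternative moved by less than the spread between pairs and 14 by more. That spread includes hour 10, which widens it in lists led by hour 10 and makes a move harder to count there. The Hsp70 and Hsp90 median went from -0.08 to 0.01 without hour 10 and was counted among the 252. Of the named genes, fit lost its call without hour 6 (adjusted p 0.0512), with only the 6 arrays (0.122) and with no block (0.565), while its difference stayed between -0.96 and -1.14 under every alternative. CG13315, pdgy, Oatp74D, Acsx3, Obp56a, Sgt1, DnaJ-1, CG10621 and ACC gained one with the index, CG13315 and CG10621 without hour 2, and with the trended robust prior the same genes except DnaJ-1, and CG17544, CG7300 and speck. No called direction was reversed. The pairs at hours 2 and 6 alone were added after seeing the data.

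There is 1 array per hour, AA followed CA by a day, and body-tissue transcripts differed among arrays. Temperature, day and time since the last warming therefore cannot be told apart. p measures the spread between arrays only, with 4 residual degrees of freedom.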
